A study of Mus musculus with 36 samples.

Results

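The lysosome is described here through 43 genes that encode its hydrolases and their activator proteins, its sterol carriers and membrane proteins, and the subunits of its proton pump. The genes were chosen by name with earlier results of these data known, and the cathepsins were kept out of the list. Shares of members set beside shares of all genes below are therefore not those of a list fixed before the data were seen. Of the 43 genes 42 had a row among the 26348 genes listed, and all 42 were among the 14892 genes that passed the filter on low counts. Atp6v0d2 was not analysed here. A mean of at least 50 CPM over all samples (CPM, the counts of a gene relative to the sample's total count, scaled between samples by the TMM method) was reached by 32 of the 42. The other 10, Neu1, Gla, Galc, Arsa, Smpd1, Sgsh, Arsb, Npc1, Mcoln1 and Atp6v1h, rested on few counts in at least some samples.

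Microglia, the brain's own macrophages, were sorted as single cells (CD11b-high, CD45-intermediate) from cortex and hippocampus of male mice aged 6 months. The mice were APP mice, which carry transgenes that include APPswe and deposit amyloid, or wild-type (WT) controls. In this line the transgenes are driven by the mouse prion protein promoter, which is active in neurons and other brain cells. Cells were separated by CD11c, an integrin found on a subset of microglia around plaques. The sort gave 6 groups: CD11c-negative WT cortex, CD11c-negative WT hippocampus, CD11c-negative APP cortex, CD11c-negative APP hippocampus, CD11c-positive APP cortex and CD11c-positive APP hippocampus. Counts were summed over the cells of 1 animal, region and gate, which gave 23 samples, 4 in each group except CD11c-positive APP hippocampus with 3. Those 3 are named 1-2, 2-3 and 4, and samples 1-2 and 2-3 may be pools that share animal 2. CD11c-positive WT cells are not among the samples, so genotype was compared within CD11c-negative cells, and CD11c-positive APP cells were also set against CD11c-negative WT cells, where gate and genotype cannot be told apart.

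Microglia take up debris, dying cells and protein aggregates and break them down in lysosomes. The proton pump (V-ATPase) consists of a membrane sector, V0, which carries protons across the membrane, and a catalytic sector, V1, which splits ATP. The acid it makes lets soluble hydrolases work, while activator proteins and sterol carriers hand lipids from internal membranes to enzymes or to exporters. Transcription factors of the TFEB family are known to bind an extended E-box in the promoters of many lysosomal genes. Loss of single members gives lysosomal storage diseases in which microglia are among the affected cells.

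The samples held 1037425 to 4484427 counts from 2657 cells, and the microglial markers fixed for the check, Tmem119, P2ry12, Csf1r and 12 others, all had counts in every group. Their summed level was 19777 to 23437 CPM in CD11c-negative APP cortex and 15088 to 16569 CPM in CD11c-positive APP cortex. In hippocampus it was 25837 to 31119 against 20271 to 20464 CPM. Single markers moved in both directions. Trem2, C1qb and Aif1 had higher means in CD11c-positive cortex, Trem2 and Siglech in CD11c-positive hippocampus, and the others lower means. At the cortical gate the means were 1663 and 417 CPM for Tmem119, and 983 and 1640 CPM for Trem2. Itgax, the gene of CD11c, stood at 85.0 to 194 CPM in CD11c-positive cortex and 64.2 to 83.9 CPM in CD11c-positive hippocampus, at most 31.8 CPM in any CD11c-negative sample, and had 0 counts in WT cortex. App, a mouse gene to which transgene reads may align, overlapped between APP and WT samples in both regions, so it gave no check of genotype. Prnp, whose promoter drives the transgenes, reached 107 to 234 CPM in CD11c-negative APP cortex and 14.0 to 79.2 CPM in WT cortex, and 0.00 to 86.7 against 0.00 to 1.69 CPM in hippocampus. A separate genotype label disagreed with the sample title in 17 of 36 libraries and gave 6 animals both genotypes, so the titles were followed, and results from only the libraries on which both agree (called the agreeing libraries below) are given where a call was lost. A number in the titles that may mark a library set differs between the genotypes, the regions and the hippocampal gates, and cannot be told apart from them. The 36 libraries shared 59 to 79 cell barcodes in every pair, from 83 barcodes in all, and 0 cells with a shared barcode had identical counts. Gene coordinates below are those of GRCm38.

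Promoter sequence was taken from RefSeq (GRCm38.p6), 250 bases before to 50 after a start, for the 36 of 43 members that the table holds, and the start base is counted as position 0. The core E-box CACGTG, which reads the same on both strands, stood in 12 of these 36 members, 33.3%, against 8.09% of 27025 genes. Its extended form TCACGTGA, which contains the core, stood in 5 members, 13.9%, against 1.12% of genes: Atp6v0d1, Atp6v0e, Atp6v1a, Gla and Mcoln1. These 3 stretches show that motif in capitals at both V0 subunits and at the lysosomal calcium channel gene Mcoln1, in the orientation of the gene. They lie at chr8:105566050-105566079, minus strand, chr17:26676387-26676416, plus strand, and chr8:3500462-3500491, plus strand.
Atp6v0d1: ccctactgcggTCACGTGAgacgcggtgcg
Atp6v0e: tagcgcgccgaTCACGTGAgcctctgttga
Mcoln1: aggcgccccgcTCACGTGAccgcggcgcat
Of the 9 members called in at least 1 comparison, Atp6v0e was the 1 whose window held the core E-box. Whether members with this motif were called more or less often than others of similar level was not tested. A match describes letters in this window and is not a bound site.

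Members called at a gate, and Gusb, called against WT in both regions, are shown by the sequence near their start. Cd68 held the AP-1 motif TGACTCA on the opposite strand at positions -149 and -24, in capitals here, from chr11:69666283-69666349, minus strand, and chr11:69666171-69666224, minus strand. On either strand this motif stood in 4 members, 11.1%, and in 5.95% of genes. Gusb held GAGGAAGT, a PU.1 type motif, on the opposite strand at position 37, within chr5:130003000-130003023, minus strand, and this motif stood in 2 members, 5.56%, and in 3.69% of genes.
Cd68 distal: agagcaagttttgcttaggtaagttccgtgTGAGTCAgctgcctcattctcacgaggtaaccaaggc
Cd68 proximal: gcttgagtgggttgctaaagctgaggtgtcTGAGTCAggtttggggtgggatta
Gusb: gacttcaagcgACTTCCTCtttct
The upstream stretches of Gm2a (chr11:55097865-55097984, plus strand), Hexa (chr9:59539420-59539539, plus strand) and Npc2 (chr12:84773153-84773232, minus strand) held none of the 4 motifs searched. They are given because these genes changed with the gate and their windows lack these motifs.
Gm2a: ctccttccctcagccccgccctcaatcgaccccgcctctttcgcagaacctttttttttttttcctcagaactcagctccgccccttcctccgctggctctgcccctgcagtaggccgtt
Hexa: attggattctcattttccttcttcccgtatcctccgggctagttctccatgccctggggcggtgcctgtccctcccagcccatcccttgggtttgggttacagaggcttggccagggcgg
Npc2: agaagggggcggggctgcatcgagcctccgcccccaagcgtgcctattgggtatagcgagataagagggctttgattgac

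CD11c-positive cells of APP mice had higher levels of several lysosomal genes, relative to total counts, than CD11c-negative cells. In cortex 4 of 42 members rose and 0 fell past an adjusted p of 0.05: Npc2, Cd68, Hexa and Gm2a. Of all genes tested 1.23% were called, and of genes with a mean of at least 50 CPM 5.06%, against 4 of the 32 members at that level, 12.5%. The median log2 fold change of the 42 members was 0.64, beside 0.19 for all genes. A positive fold was found in 33 of 42 members, 78.6%, beside 55.2% of all genes and 47.5% of genes of at least 50 CPM. At an unadjusted p of 0.05 the count was 14 of 42 members, 33.3%, beside 12.1% of all genes.

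In hippocampus 3 of 42 members rose between the gates, Gm2a, Npc2 and Cd68, and 0 fell. All genes were called at 0.551% and genes of at least 50 CPM at 2.1%, against 9.38% of the 32 members. The 82 genes called were 66 higher and 16 lower in CD11c-positive cells, a split that became 41 and 37 with RLE scaling. The median log2 fold change was 0.52 over the 42 members and 0.00 over all genes. Of the 42 folds 33 were positive, 78.6%, beside 47.6% of all genes and 55.7% of genes of at least 50 CPM. The test of whether the gate difference depended on region called 0 members, and 0.0% of all genes, with edgeR. DESeq2 called 1 member there and 248 of 14892 genes, limma voom 0 members and 18 genes, and 3 members, 7.14%, had an unadjusted p under 0.05, beside 7.49% of all genes. The smallest p values there belonged to Gm2a (0.63 ± 0.25, adjusted p = 0.523), Galc (4.67 ± 2.18, adjusted p = 0.648) and Man2b1 (-1.04 ± 0.50, adjusted p = 0.665), in log2 units with a positive sign where the gate difference was higher in hippocampus. The fold of Galc turned negative with every cell given equal weight (-0.09) and without cells that carry neural markers (-0.84).

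**Figure D1:**
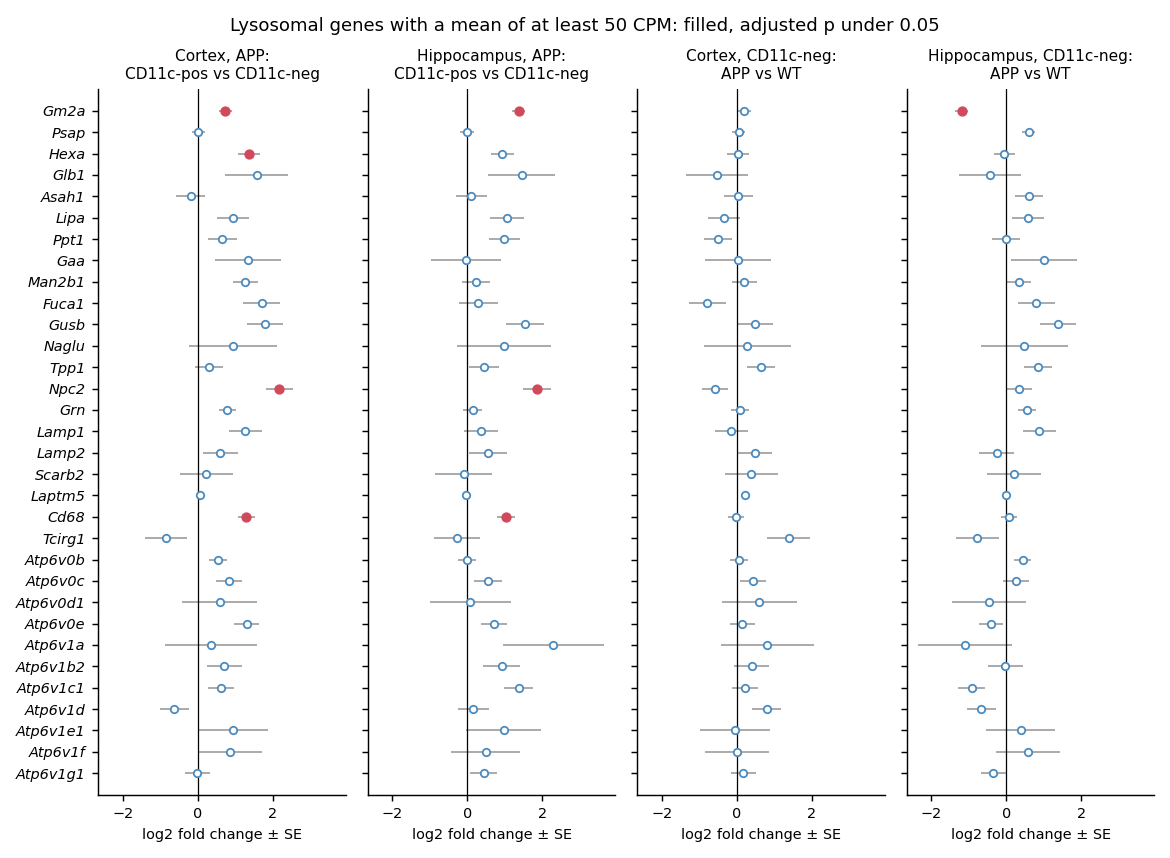
Log2 fold changes ± SE (horizontal axis) of the 32 lysosomal genes with a mean of at least 50 CPM in 4 comparisons, ordered by role from lipid hydrolases at the top to the catalytic sector of the pump at the bottom. Filled red points passed an adjusted p of 0.05: 4 genes at the cortical gate, 3 at the hippocampal gate, 0 between genotypes in CD11c-negative cortex, and Gm2a alone, which fell, in CD11c-negative hippocampus.

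Within CD11c-negative cells 1 of these genes changed with genotype, in hippocampus. In CD11c-negative cortex 0 of 42 members passed the threshold, as did 0.0% of all genes, and 1 member, 2.38%, had an unadjusted p under 0.05, beside 9.09% of all genes. DESeq2 and limma voom also called 0 members, beside 245 and 19 of 14892 genes. The members with the smallest p were Tcirg1 (1.39 ± 0.58, adjusted p = 0.519), Laptm5 (0.23 ± 0.11, adjusted p = 0.551) and Atp6v1d (0.79 ± 0.39, adjusted p = 0.551), as log2 fold changes ± SE. In CD11c-negative hippocampus 1 of 42 members (2.38%) passed, Gm2a, which fell, while 1.52% of all genes were called. At an unadjusted p of 0.05 the hippocampal count was 8 of 42 members, 19.0%, beside 15.8% of all genes.

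Against CD11c-negative WT cells, CD11c-positive APP cells were higher in 7 members in cortex and 3 in hippocampus. In cortex 7 of 42 rose and 0 fell: Cd68, Gm2a, Hexa, Gusb, Npc2, Atp6v0e and Man2b1. All genes were called at 1.07% and genes of at least 50 CPM at 4.17%, against 21.9% of the 32 members, and the median log2 fold change was 0.92 for the 42 members and 0.15 for all genes. The 160 genes called there were 92 higher and 68 lower, against 69 and 95 with RLE scaling. In hippocampus 3 of 42 rose, Npc2, Gusb and Cd68, and 0 fell. All genes were called there at 2.07%, genes of at least 50 CPM at 7.16% and the 32 members at 9.38%. The last 2 shares are close, so the 3 hippocampal calls are read as results about single genes. The 2 comparisons against WT share their CD11c-positive samples with the gate comparisons and their WT samples with the genotype comparisons. The gate and genotype comparisons share the CD11c-negative APP samples.

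Between regions, 1 of 42 members (2.38%), Laptm5, was higher in WT hippocampus than in WT cortex, where 1.63% of all genes were called. The share of genes of at least 50 CPM is not given for comparisons between regions or between genotypes. The few calls there are therefore results about single genes and not about the members as a set. In CD11c-negative APP cells Grn was higher and Gm2a lower in hippocampus, 2 of 42 members (4.76%) beside 2.29% of all genes. In CD11c-positive APP cells edgeR called 0 members, and 0.222% of all genes. DESeq2 called 1 member beside 652 of 14892 genes and limma voom 2 beside 759, and 1 member, 2.38%, had an unadjusted p under 0.05, beside 11.2% of all genes. Psap (0.61 ± 0.18, adjusted p = 0.221), Laptm5 (0.23 ± 0.12, adjusted p = 0.481) and Asah1 (0.73 ± 0.41, adjusted p = 0.549) had the smallest p there, all as log2 fold changes ± SE of hippocampus over cortex, and that of Laptm5 turned to -0.14 without cells that carry neural markers. The test of whether the genotype difference of CD11c-negative cells depended on region called 1 member, Gm2a, beside 1.01% of all genes.

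Library properties moved with the gate as well. After each cell was thinned to 5000 counts, CD11c-negative and CD11c-positive APP cells showed 549 ± 90.6 and 835 ± 136 detected genes in cortex (SD over samples), and 621 ± 31.2 and 870 ± 134 in hippocampus. Mitochondrial counts took 1.20% ± 0.296 and 2.49% ± 0.421 in cortex, and 1.18% ± 0.104 and 2.23% ± 0.304 in hippocampus. WT hippocampus stood lowest, with 436 ± 36.7 genes and 0.665% ± 0.0683. Results with detected genes per cell as a covariate are given beside each call that this ended, and the part of the mitochondrial share was not tested. Where a value stands before the adjusted p of another setting, it is the log2 fold change under that setting. The covariate lowered the calls over all genes as well, to 54 at the cortical gate, 25 at the hippocampal gate, 35 for genotype in CD11c-negative hippocampus, 68 and 2 for CD11c-positive cortex and hippocampus against WT, and 12 between WT regions, of 14892 genes each.

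Markers of other cells also moved with the gate in part. Oligodendrocyte markers summed to 139 to 271 CPM in CD11c-negative and 402 to 573 CPM in CD11c-positive APP cortex. Astrocyte markers spanned 469 to 1412 and 964 to 2366 CPM in these 2 groups, and neuronal markers 569 to 944 and 624 to 1197 CPM. Among the astrocyte markers Slc1a3 had a lower mean in CD11c-positive cortex (374 and 252 CPM), and the others had higher means. In hippocampus astrocyte markers spanned 161 to 346 CPM in CD11c-negative and 136 to 171 CPM in CD11c-positive APP cells. Oligodendrocyte markers spanned 11.3 to 121 and 52.0 to 91.5 CPM there, and neuronal markers 1.64 to 93.4 and 48.0 to 178 CPM. Border-associated macrophage markers reached 52.9 to 93.3 CPM in CD11c-positive and 0.00 to 10.6 CPM in CD11c-negative APP hippocampus, with Lyve1, Cd163 and Cbr2 at 0 in the former. Monocyte markers spanned 0.00 to 33.5 and 31.0 to 107 CPM in CD11c-negative and CD11c-positive APP hippocampus, with Plac8 and Chil3 at 0 in the latter. Dendritic cell markers spanned 0.00 to 70.9 and 18.7 to 137 CPM in these groups, with Xcr1, Clec9a and Ccr7 at 0 in the latter. The dendritic markers did not move together. Cd209a had 0 counts in CD11c-negative and spanned 0.00 to 130 CPM in CD11c-positive APP hippocampus. Zbtb46 had means of 29.3 and 16.1 CPM, and Flt3 of 0.00 and 1.80 CPM, in that order. Lymphocyte markers had 0 counts in both CD11c-negative APP groups. They spanned 0.00 to 43.1 CPM in WT cortex, with 66 counts of Trbc2 and 33 of Nkg7. In WT hippocampus and the CD11c-positive groups they reached at most 0.857 CPM. Apart from the neural markers, for which cells were left out, the part of these markers in the results was not tested. Leaving out the 636 cells with over 0.1% of counts on neural markers ended the call of Cd68 at the hippocampal gate (log2 fold change 1.03 with all cells and 0.97 without these), of Atp6v0e in cortex against WT (1.45 and 1.42), of Grn between regions of CD11c-negative APP cells (0.996 and 0.90) and of Laptm5 between WT regions (0.53 and 0.30), and of no other called member.

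**Figure D2:**
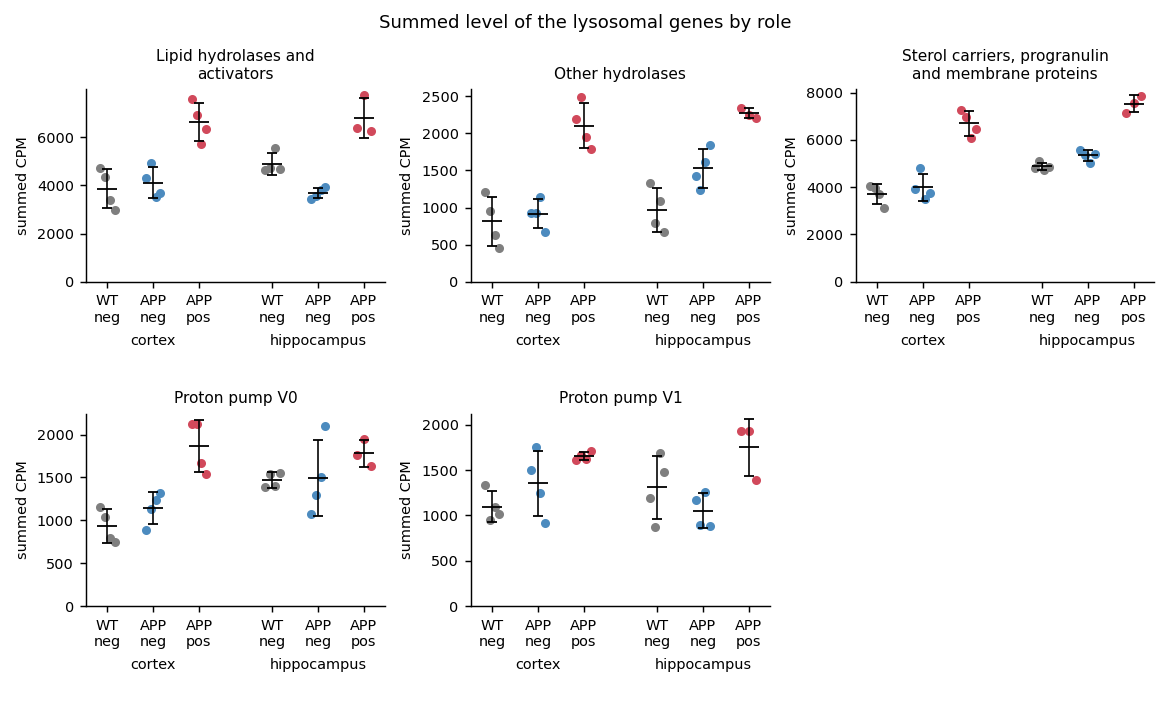
Summed level (CPM, vertical axis) of the members of each role in every sample, with the group mean and SD as a horizontal line and bar. CD11c-positive samples stand above all CD11c-negative APP samples of their region for lipid hydrolases, other hydrolases and membrane proteins, and overlap them for V0 in hippocampus and for V1 in cortex.

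Summed over all 42 members, the level was 11511 ± 1426 CPM (SD, n = 4) in CD11c-negative and 18970.0 ± 1813 CPM (SD, n = 4) in CD11c-positive APP cortex, and 13116 ± 796 (SD, n = 4) against 20140.2 ± 1138 CPM (SD, n = 3) in hippocampus. WT cortex held 10421 ± 1826 and WT hippocampus 13512 ± 653 CPM (SD, n = 4 each). Every CD11c-positive sample was above every CD11c-negative one, and CD11c-negative APP samples overlapped the WT samples of their region. Without Gm2a, CD11c-negative APP hippocampus stood at 11817 ± 859 CPM and WT hippocampus at 10548 ± 272 CPM. In a sum, more cells with a transcript and more transcripts per cell cannot be told apart.

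Among the 12 hydrolases and activators for glycolipids and other lipids, 2 rose at the cortical gate and 1 at the hippocampal gate. Gm2a (ENSMUSG00000000594, chr11:55098115-55113029) encodes the GM2 activator protein, which lifts the ganglioside GM2 out of membranes for the enzyme that Hexa helps to form. In APP cortex it stood at 2729, 2538, 1774 and 2200.2 CPM in CD11c-negative samples and 4279, 4130.4, 3132 and 3848 CPM in CD11c-positive samples. Each CD11c-positive sample was above each CD11c-negative one, 1.67-fold in the means (log2 fold change 0.74 ± 0.17 (SE), adjusted p = 0.0246). This call was lost when any 1 of the CD11c-negative samples or of CD11c-positive samples 1, 2 and 4 was left out (adjusted p 0.069 to 0.255), and with limma voom (0.70, adjusted p = 0.0878).

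In hippocampus Gm2a had the smallest p of the 42 members between the gates. It stood at 1100.0, 1479, 1377 and 1239 CPM in CD11c-negative APP samples and at 3052, 4524 and 2491 CPM in CD11c-positive samples 1-2, 2-3 and 4. The 2 groups did not overlap, and sample 2-3 was the highest of all 23 samples (log2 fold change 1.37 ± 0.18 (SE), adjusted p = 0.000204). The call held without each sample in turn, and was lost with limma voom (1.32, adjusted p = 0.349).

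WT microglia of hippocampus held more Gm2a than CD11c-negative APP cells. It stood at 2992, 2702, 3572 and 2589.6 CPM in WT hippocampus, so that each CD11c-negative APP sample was below each WT sample. It fell by 1.19 ± 0.17 (SE) on the log2 scale, adjusted p = 0.000159, and the difference of CD11c-positive hippocampal cells from WT did not pass (log2 fold change 0.18 ± 0.18 (SE), adjusted p = 0.749). In cortex the WT samples held 2448, 2093, 1703 and 1779 CPM and overlapped the CD11c-negative APP samples (log2 fold change 0.20 ± 0.17 (SE), adjusted p = 0.982). The test of the difference between the 2 regions' genotype effects gave -1.39 ± 0.24 (SE) in log2 units, adjusted p = 0.00202.

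The hippocampal fall of Gm2a held without each sample in turn and with the libraries on which title and genotype label agree (-1.31, adjusted p = 0.000743). It lost its call with the genotype label in place of the title (-0.49, adjusted p = 0.521, a fit that called 0 of 18954 genes), with limma voom (-1.26, adjusted p = 0.356) and with genes per cell as covariate (-0.89, adjusted p = 0.0531). The regional dependence lost its call in the last 2 of these (-1.46, adjusted p = 0.463, and -0.9974, adjusted p = 0.181) and with only the libraries on which the labels agree (-1.20, adjusted p = 0.11). Between regions of CD11c-negative APP cells Gm2a fell by 0.83 ± 0.17 (SE) on the log2 scale in hippocampus, adjusted p = 0.00699, a call lost with the animal as replicate block (-0.83, adjusted p = 0.129, a fit that called 0 of 9099 genes), with limma voom (-1.0002, adjusted p = 0.496) and with the agreeing libraries (-0.67, adjusted p = 0.135).

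In WT cells Gm2a went the other way between regions, higher in each hippocampal than in each cortical sample, without passing the threshold (log2 fold change 0.56 ± 0.17 (SE), adjusted p = 0.0838). It passed without WT cortex sample 1 (0.68, adjusted p = 0.0473) and with DESeq2 (0.46, adjusted p = 0.0481), and its alternatives ran from 0.32 to 0.68 on the log2 scale and adjusted p from 0.0473 to 0.639. Against WT cortex, CD11c-positive APP cortex was higher in every sample (log2 fold change 0.94 ± 0.17 (SE), adjusted p = 0.00346). That call was lost without CD11c-positive sample 1 (adjusted p = 0.0505), with limma voom (0.91, adjusted p = 0.212) and with the agreeing libraries (0.89, adjusted p = 0.0829).

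Hexa (ENSMUSG00000025232, chr9:59539540-59565109) encodes the alpha subunit of beta-hexosaminidase A, the enzyme that Gm2a serves. It stood at 349, 741, 443 and 269 CPM in CD11c-negative and 1376, 1181, 1141 and 964 CPM in CD11c-positive APP cortex. The groups did not overlap, with CD11c-positive samples 2.59-fold higher in the means (log2 fold change 1.37 ± 0.29 (SE), adjusted p = 0.0121). The call was lost without CD11c-negative sample 1, 3 or 4 or CD11c-positive sample 1 (adjusted p 0.0561 to 0.1), with genes per cell as covariate (1.64, adjusted p = 0.0808) and with the agreeing libraries (1.68, adjusted p = 0.154). Tmem202 overlaps Hexa on the opposite strand, and the authors' strand setting was not given in the sources used here.

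WT cortex samples held 639, 553, 315 and 255 CPM of Hexa, overlapping the CD11c-negative APP samples and below each CD11c-positive one (log2 fold change 1.40 ± 0.29 (SE), adjusted p = 0.0126 for CD11c-positive against WT). This call was lost without CD11c-positive sample 1 or WT sample 3 or 4 (adjusted p 0.0579 to 0.083) and with the agreeing libraries (1.33, adjusted p = 0.445). In hippocampus Hexa stood at 509.9, 705, 576 and 800.4 CPM in WT, 639.9, 559.9, 490.4 and 813 CPM in CD11c-negative APP and 1123, 1114 and 1339 CPM in CD11c-positive APP samples. CD11c-positive samples were again above all others there, without passing the threshold between the gates (log2 fold change 0.93 ± 0.30 (SE), adjusted p = 0.235).

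Psap, the precursor of the saposins that activate sphingolipid hydrolases, was not called at either gate. It stood at 509, 866, 648 and 659 CPM in CD11c-negative and 760.4, 698, 613 and 638 CPM in CD11c-positive APP cortex, which overlapped. The gate folds were 0.01 ± 0.17 in cortex and -0.00055 ± 0.186 in hippocampus on the log2 scale. In hippocampus both APP groups were above WT: 729, 691, 623 and 677 CPM in WT, 965, 830.3, 1151 and 1179.9 CPM in CD11c-negative and 991, 973 and 1129 CPM in CD11c-positive cells. Neither difference from WT passed the threshold (0.60 ± 0.17, adjusted p = 0.0898, and 0.60 ± 0.18, adjusted p = 0.0967), although no APP sample overlapped a WT sample. The CD11c-negative difference passed with DESeq2 (0.72, adjusted p = 0.000784), limma voom (0.60, adjusted p = 0.0276), RLE scaling (0.72, adjusted p = 0.0327) and equal weight per cell (0.75, adjusted p = 0.00461). With the genotype label in place of the title it was 0.09 (adjusted p = 1.0), and over all alternatives it ran from 0.09 to 0.75 on the log2 scale and adjusted p from 0.000784 to 1.0.

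The regional difference of Psap in CD11c-negative APP cells was close to the threshold (log2 fold change 0.62 ± 0.17 (SE), adjusted p = 0.059), and passed with DESeq2, limma voom, RLE scaling and equal weight per cell, and without CD11c-negative APP cortex sample 2 (0.75, adjusted p = 0.0379). Its alternatives ran from 0.44 to 0.75 on the log2 scale and adjusted p from 0.000799 to 0.418. Asah1, acid ceramidase, had gate folds of -0.19 ± 0.38 in cortex and 0.11 ± 0.41 in hippocampus. Lipa, lysosomal acid lipase, stood at 117 ± 24.3 against 223 ± 41.9 CPM (SD) at the cortical gate and 120.1 ± 52.5 against 249.8 ± 74.2 CPM at the hippocampal gate. The Lipa samples did not overlap at either gate and the differences did not pass the threshold (adjusted p = 0.38 and 0.398). Ppt1, a thioesterase that removes palmitate from proteins, had gate folds of 0.65 ± 0.38 and 0.99 ± 0.41, and Glb1, beta-galactosidase, 1.57 ± 0.84 and 1.45 ± 0.89, none called.

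The remaining 5 lipid enzymes were scarce. Gla, alpha-galactosidase A, had 1 count in WT cortex, 1 in CD11c-negative APP cortex, 1 in WT hippocampus and 18 in CD11c-negative APP hippocampus. CD11c-positive cells had 166 counts of it in cortex and 67 in hippocampus, spread unevenly, with samples from 0.00 to 22.4 CPM in cortex. Galc, which cleaves galactosylceramide, a myelin lipid, stood at 20.4 ± 31.8 against 37.7 ± 23.1 CPM at the cortical gate and 0.60 ± 0.46 against 31.0 ± 26.0 CPM at the hippocampal gate, where CD11c-negative cells held 7 counts in all (log2 fold change 5.56 ± 1.79 (SE), adjusted p = 0.225). The groups overlapped at their lowest CD11c-positive sample. Neu1, Arsa and Smpd1 had adjusted p values of at least 0.963 at either gate.

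Of the 8 hydrolases of glycogen, glycoproteins, glycosaminoglycans and peptides, 0 were called at either gate, while 7 of 8 folds were positive in cortex and 6 of 8 in hippocampus. Over all genes 55.2% and 47.6% of folds were positive at these gates. Against WT, Gusb and Man2b1 rose in CD11c-positive cortex and Gusb in CD11c-positive hippocampus. Gusb (ENSMUSG00000025534, chr5:129989011-130003049), beta-glucuronidase, stood at 155, 189.6, 44.1 and 45.7 CPM in WT cortex, 148, 159, 232 and 68.3 CPM in CD11c-negative and 343, 715, 517 and 541 CPM in CD11c-positive APP cortex. Every CD11c-positive sample was above every other cortical sample (log2 fold change 2.28 ± 0.49 (SE), adjusted p = 0.0176 against WT, and log2 fold change 1.80 ± 0.49 (SE), adjusted p = 0.0779 between the gates). The call against WT was lost without CD11c-positive sample 2 or 4 or WT sample 3 or 4 (adjusted p 0.0581 to 0.0777), with genes per cell as covariate (1.71, adjusted p = 0.221) and with the agreeing libraries (2.33, adjusted p = 0.507).

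In hippocampus Gusb stood at 150.2, 79.8, 76.7 and 31.7 CPM in WT, 126, 307, 236 and 218 CPM in CD11c-negative APP and 688, 694 and 567 CPM in CD11c-positive APP samples. The CD11c-negative APP samples were higher than most WT samples but overlapped them at 1 sample (log2 fold change 1.39 ± 0.48 (SE), adjusted p = 0.178), and the CD11c-positive samples lay above both groups. Against WT the rise was 2.94 ± 0.53 (SE) on the log2 scale, adjusted p = 0.00191, and between the gates it was 1.55 ± 0.51, adjusted p = 0.235. The call against WT held without each sample in turn and was lost with genes per cell as covariate (1.58, adjusted p = 0.775).

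Man2b1 (ENSMUSG00000005142, chr8:85083270-85098282), lysosomal alpha-mannosidase, stood at 366, 205, 243 and 162 CPM in WT cortex, 218, 339.8, 281 and 284 CPM in CD11c-negative and 866, 814, 546 and 479.7 CPM in CD11c-positive APP cortex. CD11c-positive samples did not overlap the others (log2 fold change 1.47 ± 0.34 (SE), adjusted p = 0.0299 against WT, and log2 fold change 1.27 ± 0.34 (SE), adjusted p = 0.0756 between the gates). The call against WT was lost without CD11c-positive sample 1, 2 or 4 or WT sample 2, 3 or 4 (adjusted p 0.0566 to 0.193), with genes per cell as covariate (1.38, adjusted p = 0.208), with limma voom (1.38, adjusted p = 0.0536) and with the agreeing libraries (1.39, adjusted p = 0.826). In hippocampus the 3 groups overlapped, at 662, 424, 644 and 183 CPM in WT, 559, 332, 761 and 748 CPM in CD11c-negative and 644, 720.4 and 750.4 CPM in CD11c-positive APP samples.

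Fuca1, alpha-fucosidase, was not called but did not overlap between the cortical gates, at 113 ± 69.7 and 369 ± 61.1 CPM (SD, n = 4 each, adjusted p = 0.124). Tpp1, tripeptidyl peptidase, had cortical means of 172 CPM (WT), 268 CPM (CD11c-negative APP) and 328 CPM (CD11c-positive APP), and hippocampal means of 156, 279 and 381 CPM in that order. The CD11c-positive samples lay above all WT samples in both regions, and neither difference passed the threshold (adjusted p = 0.328 and 0.102). Gaa, acid alpha-glucosidase, and Naglu, which takes part in heparan sulfate breakdown, had positive cortical gate folds of 1.33 ± 0.88 and 0.94 ± 1.17 with wide errors. Sgsh, the heparan sulfamidase, had 2 counts in CD11c-positive cortex and 0 in CD11c-positive hippocampus, where 0 allows up to 3 counts by counting error alone. Its counts in the CD11c-negative groups were 140, 72, 88 and 200 in WT cortex, APP cortex, WT hippocampus and APP hippocampus, and each of these groups also held samples at 0. Arsb, arylsulfatase B, had 3 and 7 counts in WT cortex and hippocampus and 122 to 160 in the CD11c-positive groups.

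The 9 sterol carriers, progranulin and membrane proteins held 2 of the 3 members that rose at both gates, Npc2 and Cd68. Npc2 (ENSMUSG00000021242, chr12:84754562-84773152) encodes a soluble protein that binds cholesterol in the lysosomal lumen and passes it to the membrane protein made by Npc1. In cortex it stood at 327, 593, 461 and 166 CPM in WT, 362, 238, 276 and 155 CPM in CD11c-negative APP and 1081, 1389, 1088 and 1088 CPM in CD11c-positive APP samples. Each CD11c-positive sample was above each of the others, 4.5-fold between the gates in the means (log2 fold change 2.17 ± 0.36 (SE), adjusted p = 0.00106). This call held in all 19 alternative settings run, at adjusted p up to 0.0404.

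Against WT cortex the Npc2 fold was 1.59 ± 0.35 (SE) on the log2 scale, adjusted p = 0.0222. That call was lost without CD11c-positive sample 1, 2 or 4 or WT sample 1 or 4 (adjusted p 0.059 to 0.0936) and with genes per cell as covariate (1.66, adjusted p = 0.102). In hippocampus Npc2 stood at 197, 131, 426 and 355 CPM in WT, 324, 235, 435 and 407 CPM in CD11c-negative APP and 1208, 1346 and 1287 CPM in CD11c-positive APP samples. The CD11c-negative groups overlapped each other and both lay far below the CD11c-positive samples, 3.65-fold between the gates (log2 fold change 1.87 ± 0.37 (SE), adjusted p = 0.0138).

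The hippocampal gate call of Npc2 was lost without CD11c-negative sample 1 or 2 or CD11c-positive sample 1-2 or 2-3 (adjusted p 0.0575 to 0.0851), with genes per cell as covariate (1.96, adjusted p = 0.105), and with samples 1-2 and 2-3 summed into 1 (1.84, adjusted p = 0.058). Its fold against WT hippocampus, 2.21 ± 0.38 (SE) on the log2 scale, adjusted p = 0.00117, lost its call with genes per cell as covariate (2.40, adjusted p = 0.362) and in no other setting run for it. The agreeing libraries hold no CD11c-positive hippocampal sample. For every call that involves that group, the conflict between genotype label and title was therefore not tested.

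Npc1, the partner of Npc2 in cholesterol export, was not called in any comparison. It stood at 25.1 ± 26.9 against 33.9 ± 19.3 CPM (SD, n = 4 each) at the cortical gate and 52.9 ± 9.66 (n = 4) against 33.5 ± 15.9 CPM (n = 3) at the hippocampal gate, with overlapping samples. In hippocampus WT cells held 5.57 ± 6.17 CPM from 52 counts, below every CD11c-negative APP sample (log2 fold change 3.24 ± 0.99 (SE), adjusted p = 0.114). That difference passed with DESeq2 (3.42, adjusted p = 0.000674), limma voom (3.80, adjusted p = 0.0261), equal weight per cell (2.80, adjusted p = 0.0239) and without WT hippocampus sample 3 (4.30, adjusted p = 0.0461). With the genotype label in place of the title it was 0.71 (adjusted p = 1.0), and over all alternatives it ran from 0.71 to 4.30 on the log2 scale and adjusted p from 0.000674 to 1.0. The test of regional dependence of the genotype difference gave 3.85 ± 1.33, adjusted p = 0.174, and for Atp6v1d, next by p, -1.47 ± 0.55, adjusted p = 0.222.

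**Figure D3:**
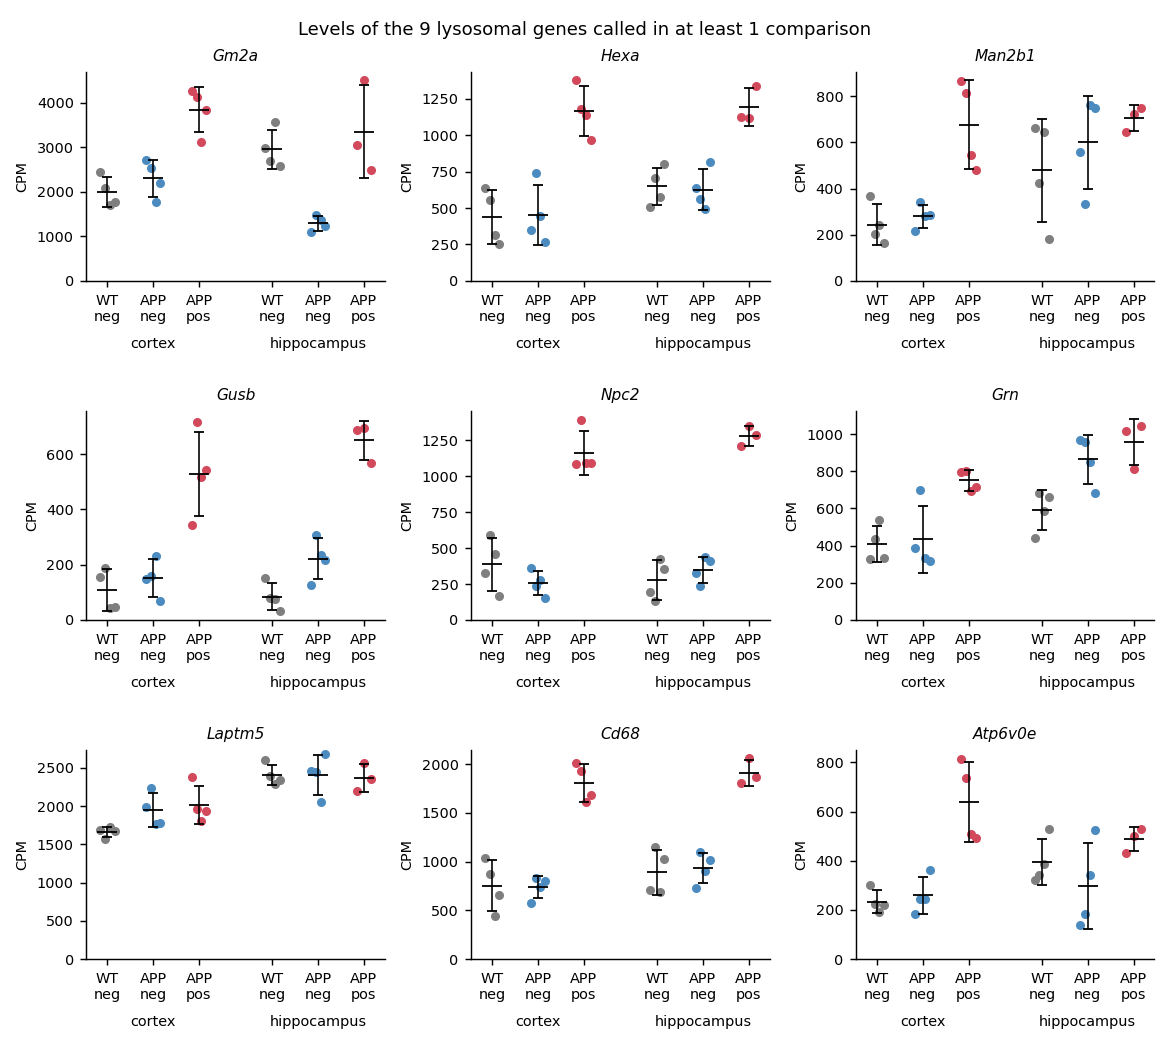
Level (CPM, vertical axis) of the 9 lysosomal genes called in at least 1 comparison, with 1 point per sample and the group mean and SD as a line and bar. Npc2, Cd68 and Hexa stand higher in every CD11c-positive sample than in any CD11c-negative one, whereas Gm2a is lowest in the 4 CD11c-negative APP hippocampus samples and Laptm5 overlaps between the gates.

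Cd68 (ENSMUSG00000018774, chr11:69664213-69666153) encodes macrosialin, a heavily glycosylated membrane protein of late endosomes and lysosomes in macrophages. In cortex it stood at 1040.2, 874, 438 and 656 CPM in WT, 576, 829, 735 and 803 CPM in CD11c-negative APP and 2014, 1927, 1609 and 1684 CPM in CD11c-positive APP samples. WT and CD11c-negative APP cells overlapped, and the CD11c-positive samples were 2.46-fold above CD11c-negative ones in the means (log2 fold change 1.30 ± 0.22 (SE), adjusted p = 0.00119) and also above WT (log2 fold change 1.27 ± 0.22 (SE), adjusted p = 0.00183). Both calls held in every setting run except the agreeing libraries alone (1.24, adjusted p = 0.109, and 1.08, adjusted p = 0.203).

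In hippocampus Cd68 stood at 706, 1146, 685 and 1023 CPM in WT, 733, 1094, 900.4 and 1013 CPM in CD11c-negative APP and 1809.9, 2063 and 1867 CPM in CD11c-positive APP samples. The order of the groups was that of cortex, without overlap between CD11c-positive and other samples (log2 fold change 1.03 ± 0.23 (SE), adjusted p = 0.033 between the gates, and log2 fold change 1.10 ± 0.23 (SE), adjusted p = 0.00786 against WT). The gate call was lost without any 1 of the 7 samples (adjusted p 0.0719 to 0.164), with genes per cell as covariate (1.21, adjusted p = 0.126), with RLE scaling (0.82, adjusted p = 0.19), without cells that carry neural markers (0.97, adjusted p = 0.0755), in a fit of the 2 groups alone (0.97, adjusted p = 0.0539) and with samples 1-2 and 2-3 summed (1.0027, adjusted p = 0.158). The call against WT was lost without CD11c-positive sample 1-2 (adjusted p = 0.0525), with genes per cell as covariate (1.45, adjusted p = 0.403) and in a fit of the 2 groups alone (1.07, adjusted p = 0.0617).

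Grn encodes progranulin, a secreted and lysosomal glycoprotein. In CD11c-negative APP cells it stood at 385, 699.6, 332 and 316 CPM in cortex and 968, 958, 848 and 683 CPM in hippocampus. Hippocampus was higher except that its lowest sample lay below the highest cortical one (log2 fold change 0.996 ± 0.24 (SE), adjusted p = 0.0231). This call was lost without CD11c-negative APP cortex sample 1, 3 or 4 or hippocampus sample 1, 2 or 3 (adjusted p 0.0739 to 0.108), with the animal as replicate block (1.06, adjusted p = 0.126), without cells that carry neural markers (0.90, adjusted p = 0.176), in a fit of the 2 groups alone (0.99, adjusted p = 0.0907) and with the agreeing libraries (1.40, adjusted p = 0.106). At the gates Grn had folds of 0.79 ± 0.24, adjusted p = 0.134, in cortex and 0.15 ± 0.25, adjusted p = 1.0, in hippocampus. Fam171a2 overlaps Grn on the opposite strand.

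Laptm5, a lysosomal membrane protein of immune cells, was called between the regions of WT cells. It stood at 1694, 1567, 1721 and 1673 CPM in WT cortex and 2598, 2399.8, 2297 and 2341 CPM in WT hippocampus, without overlap (log2 fold change 0.53 ± 0.11 (SE), adjusted p = 0.0138). The call was lost without WT hippocampus sample 1 or 2 (adjusted p 0.0522 to 0.0651), with the animal as replicate block (0.45, adjusted p = 0.438, a fit that called 0 of 8027 genes), with genes per cell as covariate (0.38, adjusted p = 0.17), with equal weight per cell (0.28, adjusted p = 0.321), without cells that carry neural markers (0.30, adjusted p = 0.291), with RLE scaling (0.43, adjusted p = 0.0592), with no gene filter (0.50, adjusted p = 0.0872), in a fit of the 2 groups alone (0.45, adjusted p = 0.112) and with the agreeing libraries (0.55, adjusted p = 0.298). Its gate folds were 0.06 ± 0.11 in cortex and -0.02 ± 0.12 in hippocampus.

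Lamp1 and Lamp2, the most abundant glycoproteins of the lysosomal membrane, were not called. Lamp1 stood at 106 ± 38.2 and 256 ± 3.53 CPM (SD) at the cortical gate without overlap (log2 fold change 1.27 ± 0.44 (SE), adjusted p = 0.23) and at 276 ± 115 and 355 ± 196 CPM at the hippocampal gate with overlap. Lamp2 had gate folds of 0.60 ± 0.47 and 0.55 ± 0.50, and Scarb2, the receptor that carries glucocerebrosidase to the lysosome, 0.22 ± 0.71 and -0.10 ± 0.77. Mcoln1, whose promoter holds the extended E-box printed above, had group means of 18.4 to 55.3 CPM, with gate folds of -0.19 ± 1.44 and 0.41 ± 1.55.

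Of the 13 tested subunits of the proton pump 0 were called at either gate or between genotypes of CD11c-negative cells, and 1, Atp6v0e, rose in CD11c-positive cortex against WT. Whether the pump differs from the other roles was not tested. Atp6v0e (ENSMUSG00000015575, chr17:26663231-26699647), a small membrane subunit, stood at 299.6, 226, 191 and 219 CPM in WT cortex, 185, 245, 244 and 362 CPM in CD11c-negative and 816, 737, 508 and 491 CPM in CD11c-positive APP cortex. CD11c-positive samples did not overlap the others (log2 fold change 1.45 ± 0.33 (SE), adjusted p = 0.0283 against WT, and log2 fold change 1.30 ± 0.33 (SE), adjusted p = 0.0518 between the gates).

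The call of Atp6v0e against WT was lost without CD11c-positive sample 1, 2 or 4 or WT sample 2, 3 or 4 (adjusted p 0.059 to 0.181), with RLE scaling (1.33, adjusted p = 0.0661), without cells that carry neural markers (1.42, adjusted p = 0.0934) and with the agreeing libraries (1.34, adjusted p = 0.826). In hippocampus it stood at 323, 342, 387 and 528 CPM in WT, 140.1, 182, 340.0 and 525 CPM in CD11c-negative and 432, 501 and 529 CPM in CD11c-positive APP samples, which overlapped in all 3 pairs of groups. Of the other 4 members with the extended E-box printed above, Atp6v0d1, Mcoln1, Atp6v1a and Gla, 0 were called in any comparison. Their means over all samples were 53.8, 33.6, 55.5 and 4.05 CPM in that order. The lowest such mean of a called member was 275 CPM (Gusb), and that of Atp6v0e was 381 CPM. The share called among genes of such low level is not given, so no link between this motif and the calls is read here.

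The proteolipid subunits Atp6v0b and Atp6v0c, which form the ring of the membrane sector, did not overlap between the cortical gates, at 464 ± 58.7 and 675 ± 94.5 CPM (SD), and 222 ± 49.0 and 396 ± 44.4 CPM, without passing the threshold (adjusted p = 0.342 and 0.331). Atp6v0c has 2 processed pseudogenes, Atp6v0c-ps1 and Atp6v0c-ps2, with which its reads may be shared. Tcirg1, an alternative form of the large membrane subunit, stood at 58.5 ± 28.6 CPM in WT cortex, 154 ± 101 CPM in CD11c-negative APP cortex and 228 ± 129 CPM in WT hippocampus. Between WT regions it had a log2 fold change of 1.96 ± 0.59 (SE), adjusted p = 0.0822, and passed with DESeq2 (1.92, adjusted p = 0.0119) and without WT hippocampus sample 1 (2.25, adjusted p = 0.0476), and its alternatives ran from 0.86 to 2.36 on the log2 scale and adjusted p from 0.0119 to 0.591. Its gate folds were negative, -0.85 ± 0.57 in cortex and -0.27 ± 0.61 in hippocampus, and not called.

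In the catalytic sector, 5 of 8 gate folds were positive in cortex and 8 of 8 in hippocampus, with medians of 0.49 and 0.76 on the log2 scale. Over all genes 55.2% and 47.6% of folds were positive, with medians of 0.19 and 0.00. Atp6v1c1, a subunit of the fixed part of the pump, stood at 249.7 CPM in WT hippocampus, 131 in CD11c-negative and 340.0 in CD11c-positive APP hippocampus. It did not overlap between the hippocampal gates (log2 fold change 1.37 ± 0.38 (SE), adjusted p = 0.121), and was lower in CD11c-negative APP than in WT hippocampus without passing the threshold (log2 fold change -0.93 ± 0.36 (SE), adjusted p = 0.215). Atp6v1d, part of the central rotor, had cortical means of 174 CPM (WT), 301 CPM (CD11c-negative APP) and 195 CPM (CD11c-positive APP), and its genotype fold in CD11c-negative cortex turned to -0.40 with the genotype label in place of the title. Atp6v1a and Atp6v1b2, the subunits that bind ATP, had gate folds of 0.35 ± 1.24 and 0.71 ± 0.47 in cortex and 2.30 ± 1.36 and 0.92 ± 0.50 in hippocampus. Atp6v1e1, Atp6v1f, Atp6v1g1 and Atp6v1h had adjusted p values of at least 0.859 at either gate.

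The share of cells with a count, after thinning each cell to 5000 counts, was higher in CD11c-positive samples for each of the 9 called members. Most of the 9 were called for higher levels in CD11c-positive samples, from the same counts. The share over all genes is not given, so this is no separate result about the members. Npc2 was seen in 14.5% ± 5.93 (SD, n = 4) of CD11c-negative and 58.1% ± 12.1 of CD11c-positive cortical cells of APP mice, and in 22.7% ± 3.04 and 64.9% ± 8.59 of hippocampal cells. Without thinning the 4 shares were 23.5%, 63.4%, 32.2% and 76.8%. Cd68 went from 36.0% ± 7.16 to 82.6% ± 4.23 in cortex and from 43.7% ± 7.53 to 88.0% ± 6.56 in hippocampus, and Hexa from 25.6% ± 5.12 to 71.5% ± 4.94 and from 31.3% ± 1.83 to 73.8% ± 13.5. Unthinned, Cd68 was seen in 45.9%, 88.3%, 58.0% and 94.2% of these cells, and Hexa in 34.3%, 76.9%, 42.5% and 84.8%. These shares are a description with no test, and they include the wider detection of genes in CD11c-positive cells given above.

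**Figure D4:**
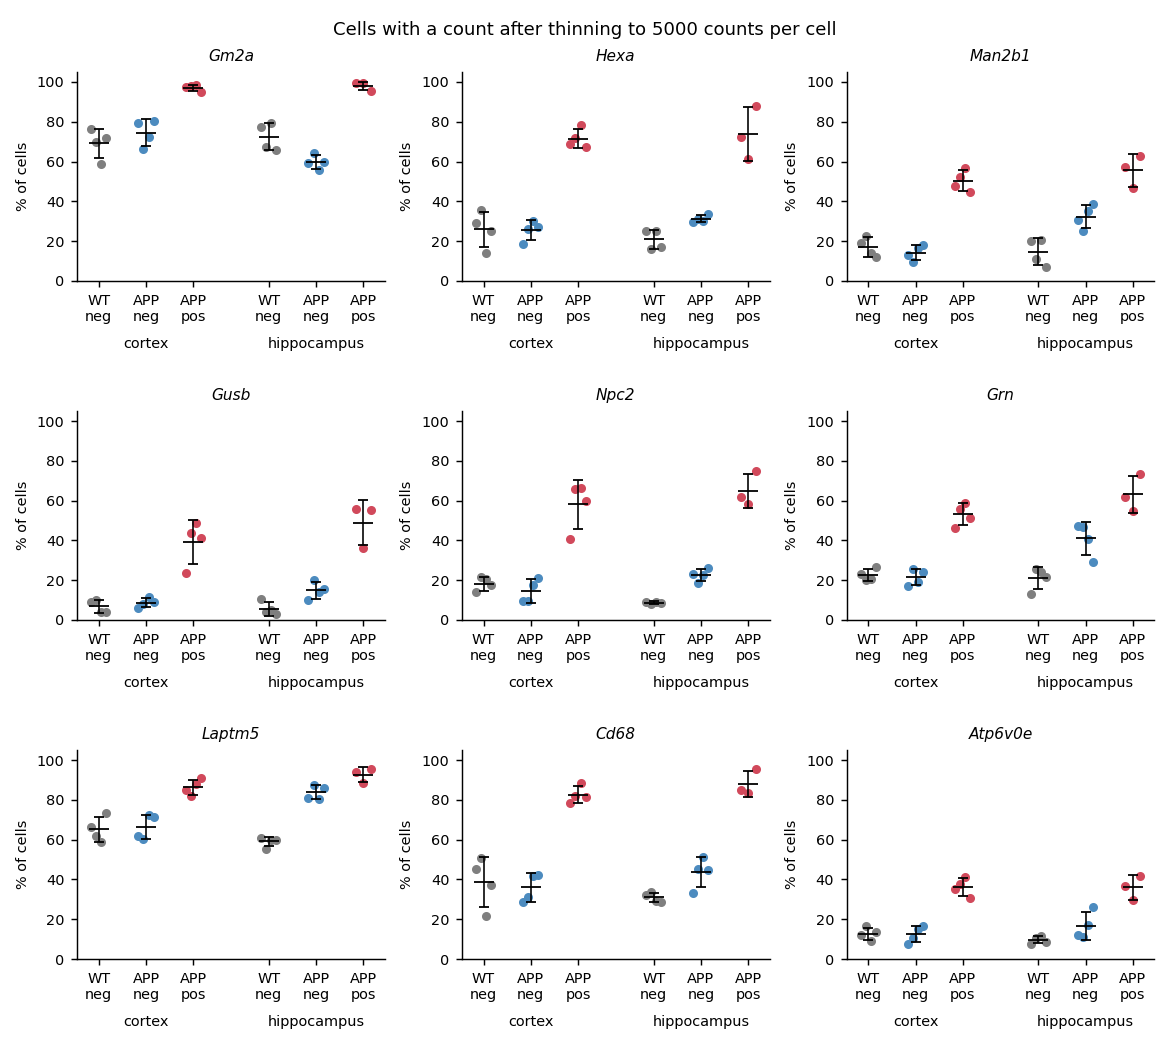
Share of cells (%, vertical axis) with at least 1 count of each of the 9 called genes after thinning to 5000 counts per cell, with 1 point per sample and the group mean and SD. CD11c-positive samples lie above the CD11c-negative samples of their region for all 9 genes, and Gm2a is seen in 59.8% ± 3.45 of cells in CD11c-negative APP hippocampus and 72.5% ± 6.90 in WT hippocampus. Detected genes per thinned cell were higher in CD11c-positive samples as well.

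Most CD11c-positive cells carried Gm2a, with thinned shares of 97.2% ± 1.52 in cortex and 98.0% ± 2.18 in hippocampus, beside 74.6% ± 6.68 and 59.8% ± 3.45 in CD11c-negative APP cells. Unthinned, the 4 shares were 99.0%, 99.8%, 87.4% and 76.5%. Gusb was found in 39.3% ± 10.99 and 49.0% ± 11.3 of CD11c-positive cells and in 8.68% ± 2.19 and 14.98% ± 4.19 of CD11c-negative APP cells, and unthinned in 45.4%, 64.6%, 13.7% and 21.5%. Laptm5 shows how the shares can part from the levels: its thinned share was 59.1% ± 2.47 in WT hippocampus and 65.2% ± 6.23 in WT cortex (69.1% and 74.6% unthinned), the reverse of its level in CPM, so no order of regions is read from it. The thinned data hold the cells with at least 5000 counts, which left out 73 of 2657 cells, 6 to 17 in a group.

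Other lysosomal genes were set beside the members by lists. Of 14 tested cathepsins, legumain and cystatins, 5 rose and 1 fell at the cortical gate and 2 rose and 0 fell at the hippocampal gate. In cortex the smallest p belonged to the proteases Ctsb (1.17 ± 0.17, adjusted p = 0.000253), Ctsz (1.01 ± 0.16, adjusted p = 0.000485) and Ctsd (0.86 ± 0.14, adjusted p = 0.000909) and to the protease inhibitor Cst7 (6.87 ± 1.58, adjusted p = 0.0246), and in hippocampus to Ctsz (0.90 ± 0.17, adjusted p = 0.00743) and Cst7 (8.89 ± 1.75, adjusted p = 0.0127), all as log2 fold changes ± SE. The 1 that fell in cortex was the endopeptidase Lgmn (-0.66 ± 0.15, adjusted p = 0.0266). In CD11c-negative cells 0 of the 14 were called between genotypes in either region.

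Of 17 other lysosomal membrane proteins and transporters 1 rose at each gate, the tetraspanin Cd63 (1.97 ± 0.20, adjusted p = 3.44e-06, in cortex, and 1.86 ± 0.21, adjusted p = 2.51e-05, in hippocampus). Of 17 other lysosomal enzymes 0 were called at either gate, nor were any of 6 other pump subunits and accessory proteins or of 7 genes that sort enzymes to the lysosome. The list of regulators of lysosomal genes and of proteins that dock the kinase mTORC1 on lysosomes had 0 of 17 called at either gate. It had 1 gene called between genotypes of CD11c-negative hippocampus, the repressor gene Bhlhe41, which fell (-0.91 ± 0.17, adjusted p = 0.00248), and its genotype effect also differed between regions (-1.11 ± 0.24 (SE) on the log2 scale, adjusted p = 0.0147). Medians of the log2 fold change at the cortical gate were 0.67 for the cathepsin list, 0.47 for other enzymes and -0.11 for other membrane proteins. They were 0.66 for other pump genes, 0.44 for regulators and 0.81 for sorting genes, with 0.64 for the 42 members and 0.19 for all genes. At the hippocampal gate the lists had 0.46, 0.09, -0.14, 0.00, 0.47 and -0.98 in the same order. The 42 members had 0.52 there and all genes 0.00.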

How the data were processed

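The deposited tables hold raw counts per gene and cell barcode, which the authors made with UMI-tools 0.5.3, HISAT2 2.1.0 and featureCounts 1.6.0 on GRCm38 (mm10), per the submitters' processing notes. The strand setting, and whether molecular identifiers were merged, are not given in the sources used here. The libraries held 956491 to 2340598 counts, and 3 of 2660 barcodes with under 200 genes were removed, while 0 exceeded 20% mitochondrial counts. No doublet caller was run. Counts were summed per animal, region and gate into 23 samples, with groups from the titles.

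The sums were tested with edgeR 4.0.16 (quasi-likelihood test, TMM scaling, filterByExpr, all 6 groups in 1 fit with 17 residual degrees of freedom, Benjamini-Hochberg adjustment over 14892 genes, threshold 0.05), and every adjusted p is from that test unless another tool is named. The common biological coefficient of variation was 1.37. Alternatives were DESeq2 1.42.0, limma voom (limma 3.58.1), RLE scaling, no gene filter, at least 10 CPM in 3 samples, equal weight per cell, detected genes per cell as covariate, no cells with over 0.1% of counts on neural markers, the 2 groups alone, the animal as block, the genotype label, and each sample left out. Summing samples 1-2 and 2-3 and keeping only libraries whose genotype label matches the title were chosen after seeing the data. The latter left 2 or 3 samples in 5 groups and none in CD11c-positive hippocampus. The scripts were tested on simulated data.

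Samples of the same animal are paired by the number in the titles. Over 3480 genes the deviations of same-animal samples from their group means correlated at 0.053, 0.056, 0.070 and 0.10 between the cortical gates. They correlated at 0.028, 0.016, -0.019 and -0.018 between WT regions, and at 0.047, 0.0085, -0.047 and 0.019 between regions of CD11c-negative APP cells. Samples of different animals gave -0.099 to 0.080, -0.033 to 0.033 and -0.043 to 0.034 in the same order. Between the cortical gates these were positive within animals 1 and 2 and within animals 3 and 4, and negative across them. Pairing by animal is therefore not read from these values. Nothing else states that samples were prepared separately, so p-values measure the spread between these samples, which may in part be technical.

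Fold changes with SE and adjusted p are given for each called member and for the 3 members of smallest p where fewer than 3 were called, values in every sample for members called in a gate or genotype comparison, and, for other lists, up to 4 called genes of smallest p; further members are named by role. The members and lists were chosen with earlier results of these data known. Floors of 3 counts cover counting error only. One item of the design is not reported here.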

Additional observations from a re-analysis of the deposited data

Results flagged for a closer look

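In 70 sets of 4 samples, made of a called member or a summed role in 1 group, the highest or lowest sample stood apart by Dixon's criterion in 2, and chance flags about 1 in 20. Npc2 in CD11c-positive APP cortex reached 1389 CPM in sample 2, while the other 3 samples held 1081, 1088 and 1088 CPM. The summed level of the 12 lipid hydrolases and activators in WT hippocampus reached 5571 CPM in sample 3, while the other 3 samples lay between 4628 and 4721 CPM.

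The genotype difference of Gm2a in CD11c-negative cells differed between the regions: the log2 difference of the 2 fold changes was -1.39 ± 0.24 (SE), adjusted p = 0.00202 with edgeR. Each of the 4 CD11c-negative APP samples was below each of the 4 WT samples in hippocampus, and the samples overlapped in cortex.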

How the results depend on the processing

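Counts of called members moved as follows, and those of all genes moved too. With DESeq2 they became 8 at the cortical gate, 6 at the hippocampal gate, 4 for genotype in CD11c-negative hippocampus, 8 for CD11c-positive hippocampus against WT, 4 between WT regions, 9 and 1 between regions of CD11c-negative and CD11c-positive APP cells, 1 for gate by region and 3 for genotype by region; calls over all 14892 genes went from 183 to 606, 82 to 529, 226 to 1066, 309 to 1215, 243 to 1601, 341 to 1160, 33 to 652, 0 to 248 and 150 to 790. With limma voom they became 8 at the cortical gate, 3 for genotype in hippocampus, 6 for CD11c-positive hippocampus against WT and 2 between regions of CD11c-positive cells, where it called 784, 413, 993 and 759 of all genes. RLE scaling gave 2 for genotype in hippocampus, 0 between WT regions and 4 between regions of CD11c-negative APP cells, and equal weight per cell 4, 0 and 7 for the same comparisons and 10 at the cortical gate; over all genes these settings called 196, 250 and 317, and 317, 74, 295 and 486. With genes per cell as covariate the counts were 1 at the hippocampal gate, 4 and 0 for CD11c-positive cortex and hippocampus against WT, and 0 for genotype in hippocampus, between WT regions and for genotype by region, where 25, 68, 2, 35, 12 and 0 of all genes were called. The genotype label gave 0 for genotype in hippocampus, as for all genes. The fit of the 2 groups alone gave 8 at the cortical gate, 1 between regions of CD11c-negative APP cells and 0 between WT regions, and leaving out cells with neural markers gave 1 and 0 for the latter comparisons; over all genes these fits called 434, 234 and 0, and 129 and 0. No gene filter gave 0 between WT regions, and 308 of 26348 genes. The agreeing libraries gave 2 at the cortical gate, 1 for CD11c-positive cortex against WT, and 0 between WT regions, between regions of CD11c-negative APP cells and for genotype by region, with 38, 27, 0, 75 and 0 of all 13944 genes. Samples 1-2 and 2-3 summed gave 1 at the hippocampal gate, with 36 of 16230 genes.

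With the animal as replicate block, 0 members were called between regions of WT and of CD11c-negative APP cells, and 6 at the cortical gate, beside 0 of 8027, 0 of 9099 and 271 of 10959 genes; it changed no other call of a named member. Without 1 sample the counts ranged from 2 to 4 at the cortical gate, 1 to 2 at the hippocampal gate, 1 to 2 for genotype in hippocampus, 2 to 7 and 2 to 3 for CD11c-positive cortex and hippocampus against WT, 0 to 2 between WT regions, 1 to 3 between regions of CD11c-negative APP cells and 1 to 1 for genotype by region, and were 0 in the other 3 comparisons. Of 730 alternative values for 38 pairs of a named member and a comparison, 599 kept direction and call, 106 lost a call, 20 gained one and 5 changed sign, 0 of them among the 22 called pairs. The 5 were Laptm5 (-0.15) and Atp6v1d (-0.40) for genotype in cortex with the genotype label, Laptm5 between regions of CD11c-positive cells without cells with neural markers (-0.14), and Galc for gate by region with equal weight per cell (-0.095) and without cells with neural markers (-0.84). The cause was not tested. RLE scaling moved the median log2 fold change of all genes from 0.01 to 0.14 for genotype in hippocampus, -0.22 to -0.34 between WT regions, 0.15 to 0.02 for CD11c-positive cortex against WT, -0.11 to -0.24 for gate by region and 0.18 to 0.38 for genotype by region. Depth limited the 10 members under 50 CPM: Gla, Sgsh and Arsb were each at 0 in at least 1 sample in at least 5 of the 6 groups.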
